A study of Rattus norvegicus with 150 samples.

Results

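Gastrocnemius, the calf muscle of the rat, was compared between animals that carried cylinders of a metal labelled P and animals that carried cylinders of tantalum (Ta), 1 and 6 months after surgery. The 31 libraries were those whose labels gave P or Ta at either time, out of 150 in the series, and fell into 8 of P at 1 month, 8 of P at 6 months, 7 of Ta at 1 month and 8 of Ta at 6 months. All came from male Sprague-Dawley rats that were about 30 days old when bought, were kept for at least 2 weeks and then received 4 cylinders of 1 mm diameter and 2 mm length, 2 per limb. Ta rats went through the same operation and carried the same number of cylinders, and served as the surgical sham. No unoperated muscle was analysed here. P is read as lead because Pb is the only metal of that initial among those the design text lists for sequencing. That reading is not stated on any library, so the short label is used throughout. The labels tie no library to a rat and do not say whether the RNA of a library was pooled, so the p-values reflect only how far the libraries of a group spread. Genes are given by Ensembl identifier because no file or table used here paired the identifiers with names. For that reason no gene was assigned to a pathway or cell type, and the labelled tissue was not checked against muscle markers.

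A piece of metal left in muscle is a foreign body. Macrophages gather at its surface, and fibroblasts lay down a capsule of connective tissue around it. Tantalum is covered by a stable oxide film and dissolves very little, and this is why it is used in implants. Lead dissolves slowly in tissue fluid, and its ions bind sulfhydryl groups of proteins and displace calcium and zinc. The muscle of a young rat also grows and matures in the months after surgery, so a later sample is also one from an older animal.

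The 31 libraries held 13278341 to 18517974 counts each, with a median of 16208977, and counts were present for 22224 of 32545 listed genes. Libraries 4 and 7 of Ta at 6 months stood apart. Their 10 most abundant genes took 42.9% and 38.2% of the counts, against 24.8% to 34.6% in the other 29 libraries. Their scaling factors (TMM, trimmed mean of M-values, which correct the library total for the makeup of the library) were 0.559 and 0.655, against 0.779 to 1.097 in the others. Libraries 1 and 8 of P at 6 months, at 0.779 and 0.838, had the next lowest factors. Counts of calls, the gene lists and some of the genes named below are also given without some or all of these 4 libraries. The common biological coefficient of variation, the spread between libraries beyond counting error, was 0.255 for P at 1 month, 0.264 for P at 6 months, 0.31 for Ta at 1 month and 0.364 for Ta at 6 months. It was 0.298 for Ta at 6 months without libraries 4 and 7.

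The main question was which genes differed between P and Ta over both times, with time as a block. A single gene, ENSRNOG00000004814, was lower with P, and no gene was higher. The gene had 4.84 to 9.55 CPM (the usual abundance unit, counts scaled to a common library total) with a median of 7.21 in P at 1 month, against 8.85 to 14.7 CPM with a median of 11.1 in Ta at 1 month. It had 6.83 to 9.02 CPM with a median of 7.26 in P at 6 months, against 6.47 to 14.8 CPM with a median of 11.8 in Ta at 6 months. All 8 P libraries lay below the Ta median at each time. At 1 month 7 of the 8 P libraries lay below every Ta library, while at 6 months the groups overlapped through Ta libraries 5 and 2, at 6.47 and 7.99 CPM. The log2 fold change was -0.60 ± 0.10 (SE; adjusted p = 0.0277 by edgeR's quasi-likelihood test). In whole muscle, fewer cells of a type and less RNA per cell cannot be told apart. The 1 called gene was 0.00775% of the 12909 tested with edgeR, and 1299 genes (10.1%) had an unadjusted p under 0.05, 554 of them higher (4.29%) and 745 lower (5.77%) with P. DESeq2 called 19 genes (3 higher, 16 lower), limma voom with sample quality weights 1 and a model of all 150 libraries 3, and 3 genes passed without TMM factors. ENSRNOG00000004814 was not among the genes called in either of these last fits. The model of all libraries also held libraries unlike their group, such as library 2 of depleted uranium (DU) at 3 months. Its median correlation with its group was 0.562, against 0.927 to 0.971 in the 31 libraries. The part of such libraries in the calls of that model was not tested.

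The call of ENSRNOG00000004814 rested on a narrow margin, although its direction did not change. Its log2 fold change was -0.64 to -0.56 when each library was left out in turn, with edgeR adjusted p-values of 0.00134 to 0.0699. The call was lost without P library 1, 4, 7 or 8 of 1 month, P library 2, 3, 4, 5 or 6 of 6 months, Ta library 6 or 8 of 1 month, or Ta library 1, 3, 7 or 8 of 6 months, with adjusted p-values of 0.0515 to 0.0699. Without Ta libraries 4 and 7 of 6 months together the edgeR adjusted p was 0.092, and without all 4 libraries of low scaling factor it was 0.0479. The call was also lost without TMM factors (edgeR adjusted p = 0.0948) and in the model of all 150 libraries (adjusted p = 0.167).

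At the other times the medians of the same gene lay closer together. At 3 months it had 6.27 to 15.5 CPM with a median of 10.7 in P, against 7.87 to 28.5 CPM with a median of 12.2 in Ta. At 12 months it had 4.28 to 7.66 CPM with a median of 6.19 in P, against 6.1 to 11.2 CPM with a median of 8.16 in Ta. All 8 P libraries lay below the Ta median at 12 months, against 5 of 8 at 3 months. The groups overlapped at both times. Over 3 and 12 months, in libraries that did not enter the main comparison, the log2 fold change was -0.47 ± 0.17 (SE; unadjusted p = 0.0107 and adjusted p = 0.115 by edgeR), which did not pass. It was -0.47 ± 0.30 at 3 months alone (SE; adjusted p = 0.334 by edgeR). At 12 months alone it was -0.46 ± 0.15 (SE; unadjusted p = 0.00589 and adjusted p = 0.109 by edgeR).

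**Figure D1:**
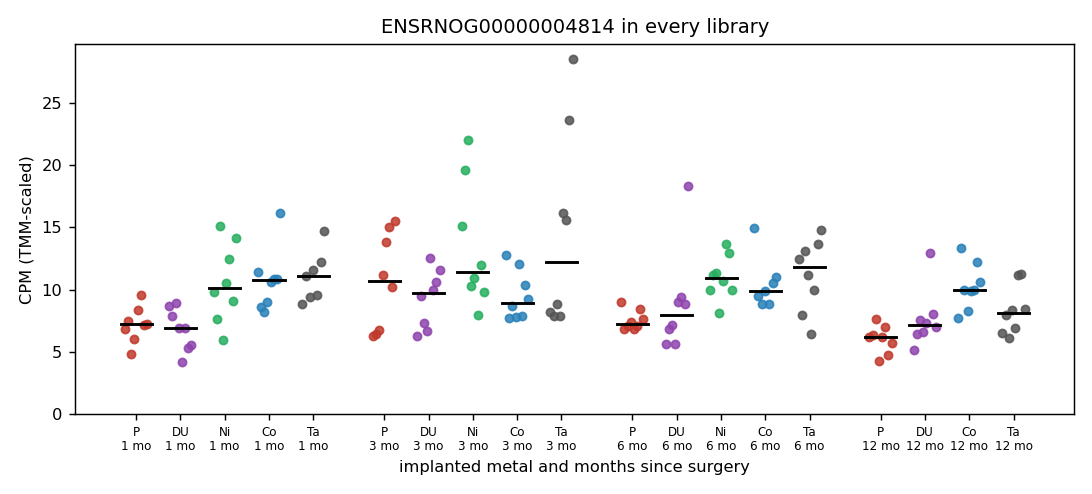
ENSRNOG00000004814 in CPM scaled by TMM factors (y axis) in every library, grouped by implanted metal and months since surgery (x axis), with 1 point per library and a bar at the group median. At 1 and 6 months the P medians of 7.21 and 7.26 CPM lie beside those of DU at 6.93 and 8.01 CPM and below those of Ta at 11.1 and 11.8 CPM.

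The 10 genes next in the order of p, 2 higher and 8 lower with P, all had an edgeR adjusted p of 0.223 and did not pass. ENSRNOG00000007407 had the largest difference among them. It had 16.3 to 30.5 CPM with a median of 21.1 in P at 1 month, against 14.4 to 193 CPM with a median of 39.7 in Ta at 1 month. At 6 months it had 12 to 26.8 CPM with a median of 17.2 in P, against 18.6 to 294 CPM with a median of 24.2 in Ta. The highest Ta values came from library 2 of 1 month and from libraries 4 and 7 of 6 months, at 193, 294 and 197 CPM, and the groups overlapped at both times. The log2 fold change was -1.75 ± 0.40 (SE; adjusted p = 0.223 by edgeR). It was -0.89 without Ta libraries 4 and 7 of 6 months (edgeR adjusted p = 0.458), without all 4 libraries of low scaling factor -1 (edgeR adjusted p = 0.213), and by voom with weights -0.73 (adjusted p = 0.352). DESeq2 (-1.76, adjusted p = 0.0162) and the model of all 150 libraries (-1.73, adjusted p = 2.75e-06), both with every library of these groups, called the gene.

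Among genes whose values were higher with P, ENSRNOG00000017553 had the smallest p. It had 10.2 to 17.2 CPM with a median of 13.1 in P at 1 month, against 6.99 to 14.7 CPM with a median of 8.75 in Ta at 1 month. At 6 months it had 10.3 to 16.5 CPM with a median of 12.7 in P, against 6.79 to 11.8 CPM with a median of 9.30 in Ta. Every P library lay above the Ta median at both times, and 6 of 8 P libraries lay above every Ta library at 6 months. The log2 fold change was 0.47 ± 0.10 (SE; adjusted p = 0.223 by edgeR and 0.0162 by DESeq2). Without Ta library 4 of 1 month, which held the highest Ta value, the gene passed with a log2 fold change of 0.53 (edgeR adjusted p = 0.0274). Over 3 and 12 months its log2 fold change was 0.06 ± 0.14 (SE; adjusted p = 0.851 by edgeR).

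ENSRNOG00000054360 had 3.17 to 6.12 CPM with a median of 4.24 in P at 1 month, against 1.8 to 3.91 CPM with a median of 2.43 in Ta at 1 month. At 6 months it had 1.58 to 3.75 CPM with a median of 2.83 in P, against 0.96 to 2.67 CPM with a median of 1.91 in Ta. All P libraries of 1 month and 7 of 8 of 6 months lay above the Ta median, and the groups overlapped at both times. Its log2 fold change was 0.62 ± 0.15 (SE; adjusted p = 0.223 by edgeR and 0.0245 by DESeq2). At 12 months alone, in other libraries, this gene was higher with P by a log2 fold change of 1.27 ± 0.30 (SE; adjusted p = 0.0307 by edgeR). At 3 months its log2 fold change was 0.01 ± 0.31.

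Few genes differed by much on average over both times, whatever their p. The median log2 fold change of all 12909 genes was -0.01, with quartiles of -0.13 and 0.11, and 61 genes (0.473%) had a fold change over 2-fold in either direction. The 95% interval of the fold change lay within 2-fold for 12146 genes (94.1%) and within 1.5-fold for 9500 (73.6%). This fit averages the 2 times, so effects of opposite sign can cancel. At 1 month alone 133 genes (1.07%) were over 2-fold, and at 6 months alone 96 (0.795%). The interval lay within 1.5-fold for 59.9% of genes at 1 month and 48.3% at 6 months. In the fit of both times, precision was lowest for scarce genes. The interval lay within 2-fold for 74.1% of the 1261 genes under 1 CPM, against 98.3% of the 5590 genes of 10 to 100 CPM. An unadjusted p under 0.05 was found for 6.42% of genes under 1 CPM, 8.49% of those of 1 to 10 CPM, 11.8% of those of 10 to 100 CPM, 13.4% of those of 100 to 1000 CPM and 4.3% of the 93 genes of at least 1000 CPM. Among the 950 genes of 100 to 1000 CPM with such a p, 37 were higher and 90 lower with P.

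Each time was then compared on its own, to ask whether P and Ta differed alike at both. At 6 months 0% of 12073 genes passed with edgeR (7.41%, or 895, with an unadjusted p under 0.05, of which 268, or 2.22% of all tested, were higher and 627, or 5.19%, lower with P), DESeq2 called 3, voom with weights 0 and the model of all libraries 2. Without Ta libraries 4 and 7 the genes with an unadjusted p under 0.05 at 6 months numbered 324 of 12306 (116 higher, 208 lower), and without all 4 libraries of low scaling factor 1234 of 12184 (503 higher, 731 lower), with no gene passing in either. At 1 month 0% of 12444 genes passed with edgeR (8.2%, or 1021, with an unadjusted p under 0.05, of which 551, or 4.43% of all tested, were higher and 470, or 3.78%, lower with P), DESeq2 called 32 (24 higher, 8 lower), voom with weights 0 and the model of all libraries 3. The difference between the effects, at 6 months minus at 1 month, passed for 0% of 12909 genes with edgeR. An unadjusted p under 0.05 was found for 881 genes (6.82%), DESeq2 called 1 gene, and voom with weights and the model of all libraries called 0. The interval of this difference lay within 2-fold for 63.9% of genes, and for the rest it reached beyond 2-fold or could not be computed.

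Across the 11974 genes tested at both times, the log2 fold changes of 6 months and of 1 month showed almost no relation. Pearson's r was -0.01 and Spearman's rho 0.01, and 49.8% of genes had the same sign. The 2 comparisons share no library, and genes are not independent replicates, so these values describe the set without a p. Of the 11974 genes, 78 had an unadjusted p under 0.05 at both times, 61 with the same sign and 17 with the opposite sign. Such a p was found for 8.2% of genes at 1 month and 7.41% at 6 months, so some overlap arises without a shared effect. The 78 are not read as an excess. Without Ta libraries 4 and 7 of 6 months r was 0.04 and rho 0.16, and without the 4 libraries of low scaling factor r was -0.02 and rho 0.03.

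**Figure D2:**
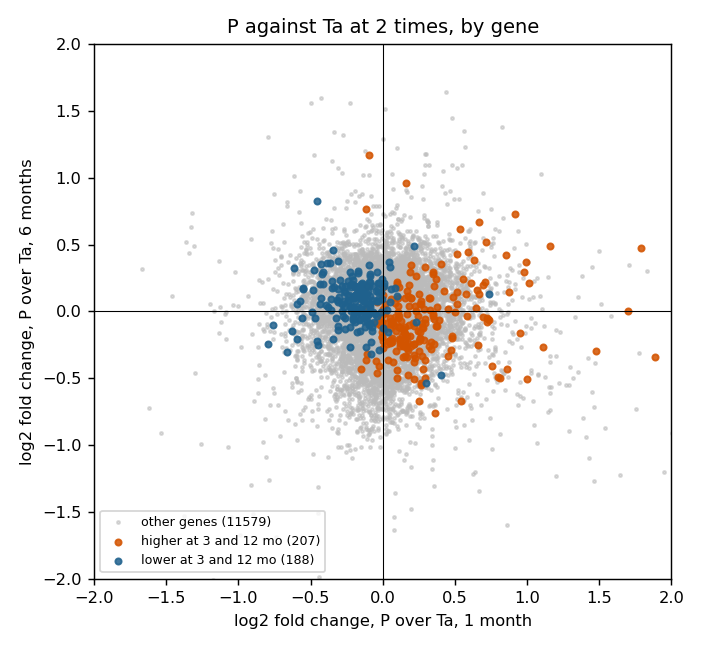
Log2 fold change of P over Ta at 6 months (y axis) against that at 1 month (x axis), with 1 point per gene tested at both times (11974 genes, 15 of them beyond the axes). Genes higher (207 plotted) and lower (188 plotted) with P at 3 and 12 months are coloured, and lie mostly right and left of 0 at 1 month.

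The 3 and 12 month libraries of P and Ta gave 2 gene lists whose choice used no library of the main comparison. There 406 of 12791 genes passed with edgeR (3.17%), 214 higher (1.67%) and 192 lower (1.5%) with P. At 1 month 187 of the 209 tested genes of the higher list had a log2 fold change above 0 (89.5%, median 0.22), against 47.2% of all genes. Of the 189 tested genes of the lower list, 172 lay below 0 (91%, median -0.17), against 52.8% of all genes. None of these genes passed at 1 month by itself with edgeR, and 42 of the higher and 21 of the lower list had an unadjusted p under 0.05 in the direction of the list. The genes of a list are not independent of each other, and the shares are given without a p. Leaving out each library of 1 month in turn gave 78% to 98.6% for the higher list and 80% to 95.8% for the lower list. A median above Ta at 1 month was not particular to P. The mean log2 CPM over the higher list had 1 month medians of 3.65 in P, 3.59 with DU and 3.70 with nickel (Ni). It was 3.32 in Ta and 3.21 with cobalt. For P against Ni over 1 and 6 months, 43.7% of the higher list lay above 0, against 50.7% of all genes. For P against DU the share was 74.8%, against 48.5% of all genes.

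At 6 months the side of the same lists was not settled. With all 16 libraries, 72 of 209 genes of the higher list lay above 0 (34.4%, median -0.09), against 51.2% of all genes, and 57 of 188 genes of the lower list lay below 0 (30.3%, median 0.08), against 48.8% of all genes. The direction depended on which libraries entered. Without Ta libraries 4 and 7 the shares were 70.9% (151 of 213) and 64.9% (122 of 188). Without P libraries 1 and 8 as well, the shares were 39% and 32.4%, back on the side given by all libraries. Both of these settings were chosen after the data were seen. No direction of the lists at 6 months is stated for that reason.

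The mean log2 CPM of the higher list was also taken as a level in each library. It ran from 3.33 to 4.01 with a median of 3.65 in P at 1 month, against 2.85 to 3.8 with a median of 3.32 in Ta at 1 month. It ran from 3.52 to 4.12 with a median of 3.69 in P at 6 months, against 3.25 to 4.17 with a median of 3.75 in Ta at 6 months. The groups overlapped at both times. The 4 group means of P were 3.62, 3.58, 3.77 and 3.84 at 1, 3, 6 and 12 months, and those of Ta 3.30, 2.97, 3.78 and 3.11. The Ta mean was highest at 6 months, the time at which it lay beside that of P. The contrast at 3 and 12 months is the one that chose the genes, which favours low Ta values at those times. Neither that contrast nor the rank of 6 months above 3 and 12 months in Ta supports anything. The means with Ni were 3.61, 3.01 and 3.62 at 1, 3 and 6 months.

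Libraries 4 and 7 of Ta at 6 months both had a mean of 4.17 over the higher list, against 3.25 to 4.05 with a median of 3.60 in the other 6 Ta libraries of that time. P libraries 1 and 8 of 6 months had 4.01 and 4.12, the highest of their group. Over the lower list the mean ran from 3.78 to 4.15 with a median of 3.98 in P at 6 months, against 3.37 to 4.22 with a median of 3.93 in Ta at 6 months. Ta libraries 4 and 7 gave the lowest values, 3.37 and 3.63. The part of the makeup of these libraries in the 6 month values was not tested. At 1 month, where the scaling factors were 0.942 to 1.065 in P and 0.949 to 1.097 in Ta, the lower list ran from 3.9 to 4.39 with a median of 4.19 in P, against 3.86 to 4.8 with a median of 4.36 in Ta.

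**Figure D3:**
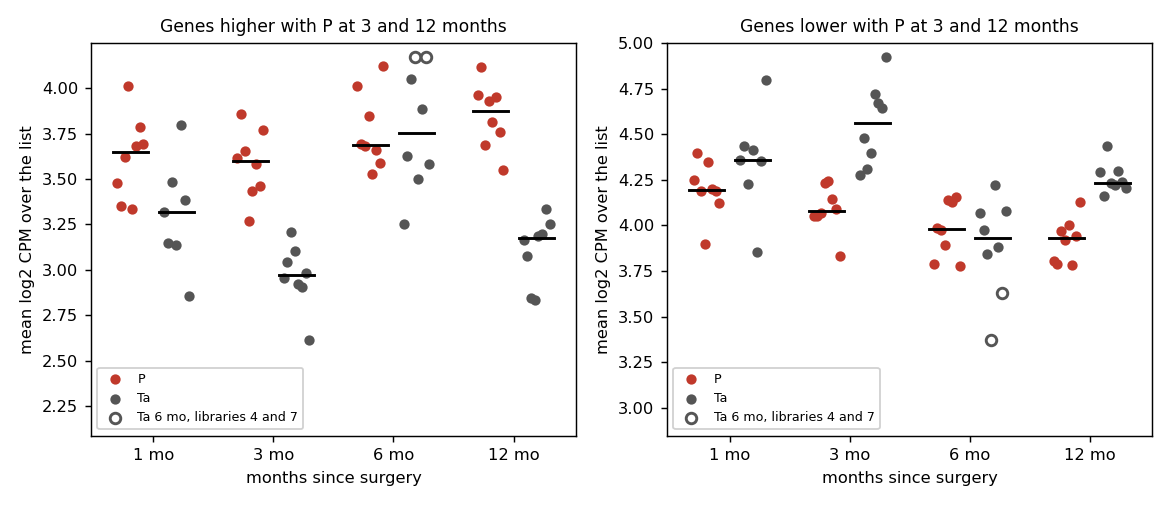
Mean log2 CPM (y axis) over the 214 genes higher (left) and the 192 genes lower (right) with P at 3 and 12 months, by months since surgery (x axis), with 1 point per library and a bar at the group median. At 6 months P and Ta overlap, and the open circles, Ta libraries 4 and 7, lie at 4.17 on the left and at 3.37 and 3.63 on the right.

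ENSRNOG00000011181, 1 of the 2 genes named from the rises at 3 and 12 months, was higher in every P library than the Ta median at 1 month, which the other, ENSRNOG00000031716, was not. It had 0.598 to 3.63 CPM with a median of 1.25 in P at 1 month, against 0.175 to 0.824 CPM with a median of 0.347 in Ta at 1 month. At 6 months it had 0.997 to 3.65 CPM with a median of 2.11 in P, against 0.512 to 4.97 CPM with a median of 2.30 in Ta. At 1 month 6 of 8 P libraries lay above every Ta library, whereas at 6 months the Ta group spanned the whole P group. The log2 fold change was 1.88 ± 0.42 at 1 month (SE; unadjusted p = 0.000323 and adjusted p = 0.372 by edgeR) and -0.34 ± 0.37 at 6 months (edgeR unadjusted p = 0.368). The 6 month value was -0.05 without Ta libraries 4 and 7 and -0.18 without all 4 libraries of low scaling factor. The effect at 6 months minus that at 1 month was -2.25 ± 0.59 (SE; unadjusted p = 0.000554 by edgeR), which failed the adjustment over all genes (adjusted p = 0.607). The P medians were 1.25, 1.35, 2.11 and 1.74 CPM at 1, 3, 6 and 12 months, against 0.347, 0.296, 2.30 and 0.555 CPM in Ta. In Ta alone the gene was higher at 6 than at 1 month by a log2 fold change of 2.62 ± 0.47 (SE; adjusted p = 0.00684 by edgeR). In P alone that change was 0.40 ± 0.33 (edgeR adjusted p = 0.497). The Ta values at 3 and 12 months belong to the contrast that chose the gene. With DU its medians were 1.38, 0.767, 2.58 and 2.49 CPM at 1, 3, 6 and 12 months. Over 1 and 6 months the log2 fold change of P over DU was 0.15 ± 0.25 (SE; unadjusted p = 0.552 by edgeR). Against Ni it was 0.16 ± 0.41 (SE; unadjusted p = 0.704 by edgeR).

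**Figure D4:**
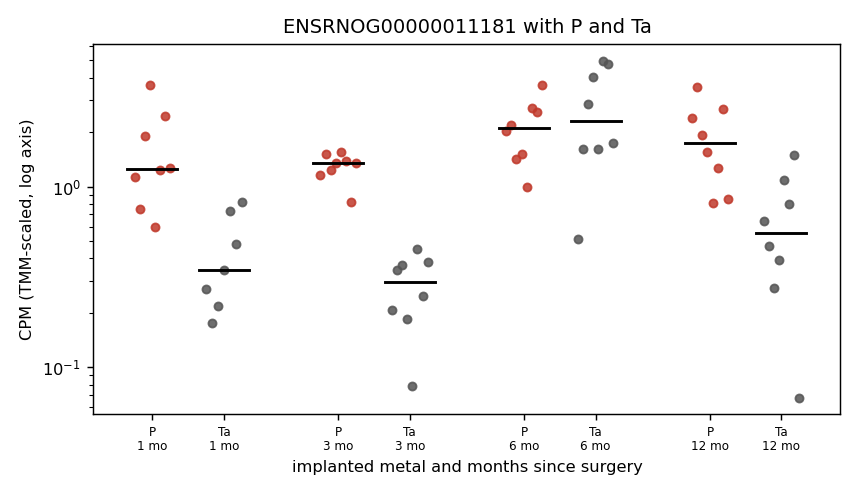
ENSRNOG00000011181 in CPM scaled by TMM factors (y axis, log scale) in P and Ta libraries by months since surgery (x axis), with 1 point per library and a bar at the group median. The P libraries lie between 0.598 and 3.65 CPM at all 4 times, and the Ta medians are 0.347, 0.296, 2.30 and 0.555 CPM.

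The other 3 genes named from 3 and 12 months held no difference at 1 and 6 months that passed. ENSRNOG00000031716, higher with P at 3 and 12 months by a log2 fold change of 1.85 ± 0.49 (SE; adjusted p = 0.0318 by edgeR), had a log2 fold change of 0.40 ± 0.39 over 1 and 6 months (edgeR adjusted p = 0.729). Its call at 3 and 12 months was lost without TMM factors (edgeR adjusted p = 0.0725). At 1 month it had 0.314 to 3.76 CPM with a median of 0.72 in P, against 0.107 to 1.53 CPM with a median of 0.811 in Ta, and 6 of 8 P libraries lay below the Ta median. ENSRNOG00000018522, lower at 3 and 12 months by -2.38 ± 0.62 on the log2 scale (SE; adjusted p = 0.0309 by edgeR), had 0.18 ± 0.55 over 1 and 6 months (edgeR adjusted p = 0.922). The call at 3 and 12 months held in 2 of 7 other settings, with adjusted p-values up to 0.902, and its log2 fold change was 0.06 with DESeq2. At 3 months it had 0.535 to 1.31 CPM with a median of 0.878 in P, against 0.246 to 18.5 CPM with a lower median of 0.758 in Ta. At 12 months it had 0.625 to 1.41 CPM with a median of 0.905 in P, against 0.571 to 31.4 CPM with a median of 1.33 in Ta. The 2 metals overlapped at both of these times. A single library lay far above the others in P at 1 month, in P at 6 months and in Ta at 1 month, at 11.7, 12.4 and 14.9 CPM. At 6 months alone the log2 fold change of this gene was 0.83 with all libraries. It was 0.93 without Ta libraries 4 and 7, and -0.49 without the 4 libraries of low scaling factor. ENSRNOG00000002911, lower at 3 and 12 months by -3.67 ± 0.81 (SE; adjusted p = 0.0116 by edgeR), was too scarce for the test at 1 and 6 months. It had no count in 6 of 8 P libraries at 1 month and 7 of 8 at 6 months, against 4 of 7 and 6 of 8 Ta libraries. At 3 months alone it was also too scarce for the test. No count was present there in 6 of 8 P and 7 of 8 Ta libraries, and the highest Ta value was 7.38 CPM. At 12 months alone the log2 fold change was -3.92 ± 0.75 (SE; adjusted p = 0.0124 by edgeR). P had 0.0549 to 0.681 CPM at that time, against 0.726 to 22.9 CPM in Ta. The 12 month medians were 0.296 CPM in P, 0.144 with DU, 0.398 with cobalt and 2.5 in Ta. In DU at 3 months this gene ran from 0 to 148000 CPM with a median of 276. The source of the Ta counts was not tested.

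Muscle with P was also set against muscle with depleted uranium (DU) and with nickel (Ni) at the same 2 times, with 8 libraries of each metal at each time and no Ta library in the fit. Against DU 0% of 12913 genes passed with edgeR. An unadjusted p under 0.05 was found for 244 genes (1.89%), DESeq2 and the model of all libraries called 1 gene each and voom with weights 0. The 95% interval of the fold change lay within 2-fold for 95.7% of genes and within 1.5-fold for 83.5%, which bounds the difference for those genes and does not show that the metals act alike. ENSRNOG00000004814 had 4.2 to 8.91 CPM with a median of 6.93 in DU at 1 month and 5.64 to 18.3 CPM with a median of 8.01 in DU at 6 months, and the log2 fold change of P over DU was -0.07 ± 0.13 (SE; unadjusted p = 0.606 by edgeR).

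Against Ni 3 of 12831 genes passed (0.0234%), all lower with P, and 1661 (12.9%) had an unadjusted p under 0.05. ENSRNOG00000004814, the gene called against Ta, was 1 of them, with a log2 fold change of -0.54 ± 0.10 (SE; adjusted p = 0.0419 by edgeR). It had 5.95 to 15.1 CPM with a median of 10.2 in Ni at 1 month and 8.11 to 13.7 CPM with a median of 10.9 in Ni at 6 months. The comparisons with Ta and with Ni share the P libraries, so this is not a second independent result.

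ENSRNOG00000042886 had 34.6 to 51.6 CPM with a median of 46.2 in P at 1 month, against 47 to 85.5 CPM with a median of 75.1 in Ni at 1 month. At 6 months it had 42 to 67.9 CPM with a median of 49.7 in P, against 55 to 88.4 CPM with a median of 68.5 in Ni. At 1 month the groups overlapped at the edges of their ranges, and at 6 months through a single P library at 67.9 CPM, with the other P libraries at 42 to 54 CPM. The log2 fold change was -0.55 ± 0.09 (SE; adjusted p = 0.00575 by edgeR). The call was lost in 2 of 7 other settings, 1 of them the model of all 150 libraries (adjusted p = 0.174). Against Ta its log2 fold change was -0.47 ± 0.12 (SE; adjusted p = 0.278 by edgeR), which did not pass, and against DU -0.14 ± 0.11.

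ENSRNOG00000046349 had 10.7 to 18.8 CPM with a median of 13.8 in P at 1 month, against 11.7 to 63.6 CPM with a median of 24.9 in Ni at 1 month. At 6 months it had 11.4 to 26.3 CPM with a median of 12.9 in P, against 17.1 to 36.1 CPM with a median of 28 in Ni. The groups overlapped at both times. Its log2 fold change was -0.98 ± 0.19 (SE; adjusted p = 0.0419 by edgeR), and against Ta it was -0.79 ± 0.18 (SE; adjusted p = 0.223 by edgeR). The count of genes called against Ni was 67 with DESeq2 (9 higher, 58 lower), 73 with voom and 62 without TMM factors.

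Within P, 1350 of 12270 genes (11%) differed between 6 and 1 month with edgeR, 561 higher (4.57%) and 789 lower (6.43%) at 6 months, of which 44 and 126 were over 2-fold. Without TMM factors the split was 204 higher and 960 lower, and in the model of all 150 libraries 65 genes passed. Each time was its own cohort, so time since surgery, age and cohort cannot be told apart. ENSRNOG00000038406 had 0.902 to 4.16 CPM with a median of 1.63 in P at 6 months, against 0 to 0.116 CPM with a median of 0.0567 in P at 1 month. No P library of 6 months overlapped those of 1 month, and the log2 fold change was 5.18 ± 0.47 (SE; adjusted p = 8.1e-06 by edgeR). In Ta it had 0.269 to 3.58 CPM with a median of 1.21 at 6 months, against 0 to 0.482 CPM with a median of 0.200 at 1 month, and was too scarce for the test there.

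ENSRNOG00000015210 had 4.29 to 17.4 CPM with a median of 6.66 in P at 6 months, against 0.185 to 2.68 CPM with a median of 0.618 in P at 1 month. The 2 groups of libraries did not overlap, and the log2 fold change was 3.04 ± 0.45 (SE; adjusted p = 0.00083 by edgeR). In Ta the gene had 1.08 to 20.2 CPM at 6 months, against 0.48 to 5.14 CPM at 1 month, with overlap between the times, and also rose, by a log2 fold change of 2.16 ± 0.59 (SE; adjusted p = 0.0307 by edgeR).

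The named falls within P were uneven between libraries. ENSRNOG00000003171 had 8.25 to 35.7 CPM with a median of 21.6 in P at 6 months, against 4.11 to 895 CPM with a median of 142 in P at 1 month. The low end of the 1 month range lay below the whole 6 month group, and the log2 fold change was -3.37 ± 0.86 (SE; adjusted p = 0.022 by edgeR). In Ta it was -0.64 ± 1.03 (edgeR adjusted p = 0.694), and the effect of P at 6 months minus that at 1 month did not pass (edgeR adjusted p = 0.653). ENSRNOG00000022707 had 0 to 1.35 CPM with a median of 0.851 in P at 6 months, against 0 to 41.6 CPM with a median of 3.15 in P at 1 month. The groups overlapped, and the log2 fold change was -3.51 ± 1.07 (SE; adjusted p = 0.0467 by edgeR). This call was lost in 5 of 8 other settings, with adjusted p-values up to 0.396, and that of ENSRNOG00000003171 in 3 of 8, with adjusted p-values up to 0.176.

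Most genes called between the times in P had the same sign in Ta, which shares no library with P. Of the 561 genes higher at 6 months in P, 540 of the 558 tested in Ta lay above 0 (96.8%), against 50.2% of all genes. Of the 789 lower genes, 758 of 782 lay below 0 (96.9%), against 49.8% of all genes. In Ta 1205 of 12247 genes passed with edgeR (9.84%), 503 higher (4.11%) and 702 lower (5.73%). The 171 genes higher in both made up 30.5% of those of P and 34% of those of Ta, and the 358 lower in both made up 45.4% and 51%. No gene was called in opposite directions. Across 12094 genes Pearson's r was 0.62 and Spearman's rho 0.63, with 73.1% of genes of the same sign. Without Ta libraries 4 and 7 Ta gave 653 calls (303 higher, 350 lower), r was 0.66 and rho 0.71.

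In Ta 172 of the called genes were higher and 301 lower at 6 months by over 2-fold, beside the 44 and 126 of P. The Ta counts were 113 and 153 without Ta libraries 4 and 7, and the P counts 53 and 145 without P libraries 1 and 8. The 2 lists from 3 and 12 months were also followed between the times. In P the higher list had a median log2 fold change of 0.15 at 6 over 1 month with 74.1% of genes above 0 (52.2% of all genes), and the lower list one of -0.14 with 75.5% below 0 (47.8% of all genes). Without P libraries 1 and 8 these medians were 0.01 with 54.2% above 0 and -0.08 with 60.8% below 0. In Ta the medians were 0.46 with 88% above 0 and -0.38 with 94.2% below 0, and without Ta libraries 4 and 7 they were 0.27 with 81.8% above 0 and -0.27 with 88.9% below 0. The difference in these medians was not tested.

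**Figure D5:**
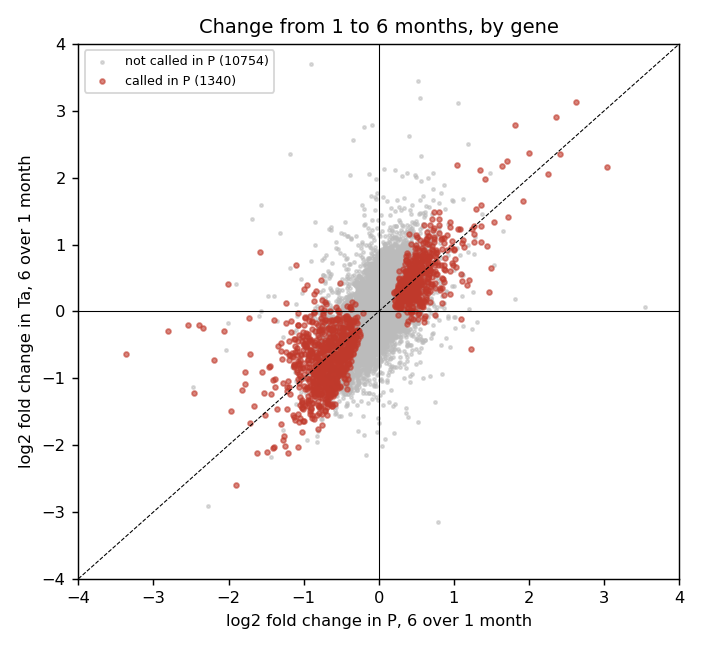
Log2 fold change of 6 over 1 month in Ta (y axis) against that in P (x axis), with 1 point per gene (12094 genes) and a dashed line of equality. The 1340 genes called in P and tested in both, in red, lie mostly in the lower left and upper right, with r = 0.62 over all genes.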

How the data were processed

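RNA was sequenced from gastrocnemius muscle. The authors deposited 1 table of raw counts by gene for 150 libraries, without normalization. Per the labels' protocols, a stranded total RNA kit was used on 1000 ng of RNA, and 10 libraries shared a lane for paired reads of 100 bases. The lane of a library was not given. Per the submitters' processing notes, HISAT2 2.0.5, featureCounts 1.5.0-p3 and the build Rnor_6.0 were used. Neither the annotation release nor the strand setting is given in the sources used here. Reads of overlapping genes, antisense genes and close copies may therefore be mixed. Columns were matched to libraries by label.

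None of the 32545 identifiers matched a name or sequence in the reference tables used, so the 41 gene lists written for this tissue could not be tested. Named genes were chosen as follows. Among genes with an adjusted p under 0.05 and a mean of 1 CPM or more, at most 2 rises and 2 falls are given per comparison. They were taken by size of log2 fold change. For genes named from the main comparison of P against Ta, 75% or more of libraries also lay past the other group's median. That share was not met by every gene named elsewhere. ENSRNOG00000018522, named as a fall, had 5 of 8 P libraries above the Ta median at 3 months. At 12 months 7 of 8 P libraries lay below it. In P against Ta, where few passed, the 10 genes next in order of p were counted as genes that did not pass, and those with the largest log2 fold change were named to reach 2 rises and 2 falls. ENSRNOG00000004814 is also given against Ni. The comparisons, the genes and the lists were chosen with earlier results of these data known.

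Each comparison used its own groups. Genes were filtered with filterByExpr, scaled with TMM factors and tested with glmQLFit (robust) and glmQLFTest of edgeR 4.0.16 in R 4.3.3, with Benjamini-Hochberg adjustment over all genes tested and a threshold of 0.05. The SE is the size of the log2 fold change over the square root of F. CPM values were scaled with TMM factors fitted to the 150 libraries together, and a prior count of 2 was added before taking log2. The 95% interval used the residual degrees of freedom of the fit. Alternatives were DESeq2 size factors, no TMM factors, no low-count filter, the DESeq2 1.42.0 Wald test, voom with sample quality weights of limma 3.58.1, 1 model of all libraries, the replicate number as a block, and leaving out each library. Leaving out several libraries together, the lists from 3 and 12 months and the comparison of Ta between the times were added after the data were seen. No 2 libraries of a group matched within sampling noise (lowest chi-square per degree of freedom 10.8).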

Additional observations from a re-analysis of the deposited data

Results flagged for a closer look

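In the 14 named genes, 56 groups of libraries (P and Ta at 1 and 6 months) were searched for a library far from the rest of its group by Dixon's test, and 17 were found. A rate of about 1 in 20 groups holds only for values with a normal distribution, which was not checked. Some of these groups had no count in most libraries, so the 17 are not read as an excess over chance. ENSRNOG00000003171 and ENSRNOG00000022707 had the high value in the same library in 3 groups. In library 5 of P at 1 month they had 895 CPM (others 4.11 to 264) and 41.6 CPM (others 0 to 9.28). In library 6 of Ta at 1 month they had 330 CPM (others 14 to 93.3) and 6.91 CPM (others 0 to 1.17). In library 6 of Ta at 6 months they had 352 CPM (others 4.43 to 11.4) and 13.4 CPM (others 0.106 to 0.573).

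ENSRNOG00000018522 had 11.7 CPM in library 1 of P at 1 month (others 0.433 to 1.34), 12.4 CPM in library 8 of P at 6 months (others 0.469 to 1.28) and 14.9 CPM in library 6 of Ta at 1 month (others 0.676 to 1.81). ENSRNOG00000002911 had 0.299 CPM in library 5 of P at 1 month (others 0 to 0.0672), 0.068 CPM in library 6 of P at 6 months (others all 0) and 0.96 CPM in library 1 of Ta at 6 months (others 0 to 0.12). ENSRNOG00000007407 had 30.5 CPM in library 4 of P at 1 month (others 16.3 to 22.3) and 193 CPM in library 2 of Ta at 1 month (others 14.4 to 46.6). ENSRNOG00000042886 had 67.9 CPM in library 1 of P at 6 months (others 42 to 54). ENSRNOG00000038406 had 4.16 CPM in library 3 of P at 6 months (others 0.902 to 2.31). ENSRNOG00000017553 had 14.7 CPM in library 4 of Ta at 1 month (others 6.99 to 10.1).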

How the results depend on the processing

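For P against Ta over 1 and 6 months, where the main count was 1, DESeq2 called 19 genes, the fit without TMM factors 3, the model of all 150 libraries 3, the fit without Ta libraries 4 and 7 of 6 months 0, and that without the 4 libraries of low scaling factor 4. Leaving out each library gave 0 to 2, with 2 without Ta library 4 of 1 month. At 1 month alone DESeq2 called 32 and the model of all libraries 3, and leaving out each library gave 0 to 1. At 6 months alone DESeq2 called 3 and the model of all libraries 2, and leaving out each library gave 0. DESeq2 called 1 gene for the difference between the times. For P against DU, DESeq2 and the model of all libraries called 1 each. For P against Ni, where the main count was 3, DESeq2 called 67, voom 73 and the fit without TMM factors 62. For P against Ta over 3 and 12 months, where it was 406, DESeq2 called 715, voom 624, the fit without TMM factors 169 and the model of all libraries 71. For P at 6 against 1 month, where it was 1350, the model of all libraries called 65, and the fit without P libraries 1 and 8 of 6 months 1849 (946 higher, 903 lower). The model of all libraries also held libraries unlike their group, as given above. The causes were not tested.

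The shares of the 3 and 12 month lists moved as follows. Drawn from 12 months alone, the higher list lay above 0 for 80.3% of genes at 1 month and 51.9% at 6 months, and the lower list below 0 for 83.3% at 1 month and 57.4% at 6 months. Drawn from 3 months alone, with 12 and 28 genes, the shares were 83.3%, 50%, 85.7% and 42.9% in that order. Without TMM factors the 6 month shares were 48.8% for the higher and 20.2% for the lower list. Without Ta libraries 4 and 7 they turned to 70.9% and 64.9%. Leaving out each library gave 78% to 98.6% and 29.2% to 43.8% for the higher list at 1 and at 6 months, and 80% to 95.8% and 23.4% to 41% for the lower. For the genes called in P between the times, the share of the same direction in Ta was 89.4% (higher) and 99% (lower) without TMM factors, a setting that lowered the median log2 fold change of all genes in Ta by 0.15, and 98.4% (higher) without Ta libraries 4 and 7. Of 234 values of named genes, each refitted in the comparison that named the gene, 233 kept their direction. The exception was ENSRNOG00000018522 over 3 and 12 months, at 0.06 with DESeq2. These refits reused the libraries that chose the genes, so a kept direction was close to fixed beforehand and carries little weight.

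The replicate numbers did not pair the libraries. Across 15 pairs of the same number, deviations from the group means correlated at -0.385 to 0.443, with 4 over 0.1, and 2 of the pairs correlated best with their own number. With the replicate number as a block, counts were 0 for P against Ta over 1 and 6 months, 89 over 3 and 12 months, 0 against Ni and 847 for P at 6 against 1 month, and the higher list lay above 0 for 93.8% of genes at 1 month. The calls of ENSRNOG00000004814 (adjusted p = 0.12), ENSRNOG00000031716 (0.0708), ENSRNOG00000002911 (0.0955), ENSRNOG00000042886 (0.212), ENSRNOG00000046349 (0.283), ENSRNOG00000018522 (0.449), ENSRNOG00000022707 (0.149) and ENSRNOG00000003171 (0.176) were lost with it.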
